A study of Mus musculus with 12 samples.

Results

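A set of 157 transcripts was higher in every library of DMBA-treated Tcrb-/- skin, with or without transferred Tregs, than in any library of WT skin. Levels were taken as CPM, the estimated reads of a transcript divided by the sum of its library and scaled to 1e+06 reads. A transcript entered the set where its mean was at least 0.5 CPM over the 12 libraries, where each of the 4 groups had at least 1 library above 0, where the lowest of the 6 Tcrb-/- libraries lay above the highest of the 6 WT libraries, and where the mean of the 6 Tcrb-/- libraries was at least 4 times that of the 6 WT libraries. Of 85565 listed transcripts 30678 met the limits on level, and 157 of these met the rest of the rule. The members were thus chosen by their CPM in all 12 libraries, and every value of the difference between Tcrb-/- and WT skin is given as a description.

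RNA with a polyA tail was sequenced from whole back skin of mice on the FVB background in 4 groups of 3 libraries each. These were untreated WT mice (UT WT), WT mice exposed to DMBA (WT DMBA), Tcrb-/- mice exposed to DMBA, and Tcrb-/- mice that had received CD3+CD4+CD25+ Tregs of WT donors before exposure (Tcrb-/- + Treg). The sources used here differ on whether the donor cells came from spleen alone or also from lymph nodes. The labels give 200 ng of DMBA weekly for 6 weeks, while the methods give doses in another unit. All 6 Tcrb-/- libraries came from exposed skin and no untreated Tcrb-/- skin was analysed here, so the genotype was compared only in treated Tcrb-/- mice. The labels give neither age nor sex. The methods describe age-matched female mice of a set age in weeks for carcinogenesis, shaved on the back before exposure. The WT controls were bought or were littermates, and which applies to these libraries is not given in the sources used here. The WT DMBA libraries carry an untreated entry in their treatment field and were placed by their names. Whether the 3 libraries of a group are 3 mice is not stated, and p-values then measure the spread between libraries, which may be technical.

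Whole back skin holds epidermis, hair follicles, dermis, vessels and resident immune cells, and the RNA of all of them is pooled in each library. Tcrb encodes the β chain of the αβ T cell receptor. Mice without it lack αβ T cells, Tregs among them, and retain γδ T cells. The carcinogen DMBA, a polycyclic aromatic hydrocarbon, is converted by enzymes of the skin into forms that bind DNA. Tregs are CD4+ T cells that restrain other immune cells and take part in tissue repair. In RNA of a whole tissue, more cells of a type and more RNA per cell cannot be told apart.

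The estimates are for transcripts of the FVB/NJ strain, and no table at hand pairs these transcripts with genes. The 157 transcripts are therefore described by identifier, length and level, and their genes, positions and sequences are not given. For the same reason neither the level of Tcrb nor any marker of a skin or immune cell type could be read, and every direction holds only as far as the labels of the libraries do. The libraries held from 17312566 to 31701620 estimated reads.

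In UT WT skin the 157 transcripts together took up 0.0340% to 0.0389% of the reads. Their summed level was 389, 340 and 358 CPM in UT WT replicates 1, 2 and 3. In WT DMBA it was 1010, 1773 and 768 CPM, so that each exposed WT library lay above each untreated one. In Tcrb-/- it was 53387, 13256 and 4942 CPM, and in Tcrb-/- + Treg 46975, 63240 and 13739 CPM. The highest library, Tcrb-/- + Treg replicate 2, thus gave 6.32% of its reads to 157 transcripts, and the lowest Tcrb-/- library, replicate 3, gave 0.494%. Group means were 362 ± 25.2 CPM in UT WT, 1184 ± 525 CPM in WT DMBA, 23862 ± 25905 CPM in Tcrb-/- and 41318 ± 25231 CPM in Tcrb-/- + Treg (SD, n = 3 each). The SD within Tcrb-/- was larger than its mean, and the libraries of Tcrb-/- and Tcrb-/- + Treg overlapped.

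**Figure D1:**
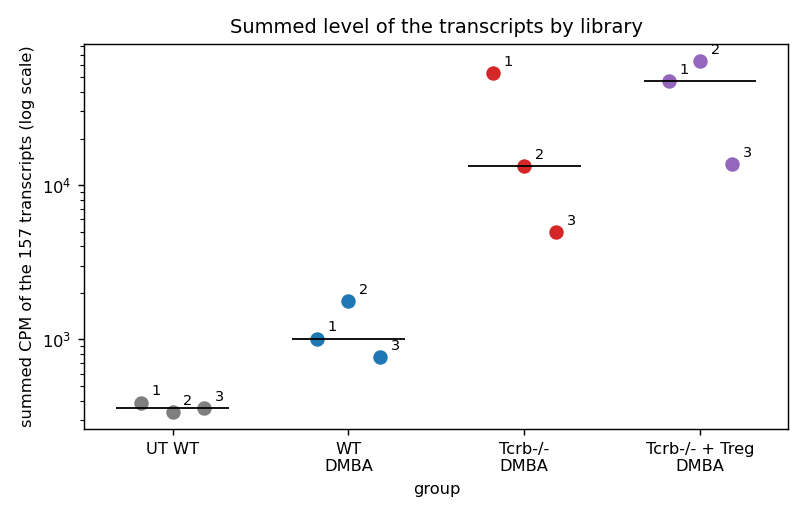
Summed level of the 157 transcripts in each library, in CPM on a log scale. Points are single libraries numbered by replicate and lines are group medians. The 3 UT WT libraries lie between 340 and 389 CPM, and Tcrb-/- spreads from 4942 to 53387 CPM.

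A few transcripts carried much of this sum. The 4 with the highest mean CPM held 40.6% to 60.4% of the summed CPM in the 6 Tcrb-/- libraries, 15.1% to 31.8% in WT DMBA and 4.47% to 5.11% in UT WT. Every other member also met the rule, so the sum without those 4 was bound to be higher in Tcrb-/- libraries and is a description. Without those 4 the sum was 324 to 372 CPM in UT WT, 652 to 1210 CPM in WT DMBA, 2935 to 25274 CPM in Tcrb-/- and 7058 to 27219 CPM in Tcrb-/- + Treg. Among the 100 transcripts with the most reads of a library were 12 members of the set in at least 1 Tcrb-/- library, and 0 in any WT library.

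Per unit of length, the median member had a mean of 0.399 TPM (the deposited level corrected for transcript length) in UT WT, 1.98 TPM in WT DMBA, 22.2 TPM in Tcrb-/- and 31.1 TPM in Tcrb-/- + Treg. Over the 30678 transcripts that met the limits on level these medians were 5.39, 5.27, 4.61 and 4.21 TPM. Members were thus below the typical transcript in untreated WT skin and above it in both Tcrb-/- groups. A mean of at least 100 TPM was held by 0 members in UT WT, 1 in WT DMBA, 43 in Tcrb-/- and 51 in Tcrb-/- + Treg. In UT WT 47 of the 157 reached 1 TPM, and 36 had at most 3 estimated reads in each of the 3 libraries. In the 6 Tcrb-/- libraries 155 members had at least 10 estimated reads in every library and 89 had at least 100.

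The ratio of the mean CPM of the 6 Tcrb-/- to that of the 6 WT libraries ran from just above its limit of 4 to 614, with a median of 21.3 and quartiles of 7.66 and 84.3. It was at least 8 in 116 members, at least 50 in 58 and at least 100 in 28. The WT mean includes the 3 untreated libraries, so these ratios hold exposure as well as genotype. For Tcrb-/- against WT DMBA alone, the fitted log2 fold change of members had a median of 3.63 (0.97 to 8.42). The gap between single Tcrb-/- and WT libraries was narrower than the ratios of means. The lowest Tcrb-/- library was 1.01 to 10.1 times the highest WT library, with a median of 1.83 times. The member nearest the limit on fold had 2.59 to 10.6 CPM in Tcrb-/- and 0.136 to 2.42 CPM in WT libraries. The transcript just short of it, at a ratio of 3.97, had 6.07 to 8.56 and 0 to 5.23 CPM. At the narrowest gap a member had 1.28 CPM in its lowest Tcrb-/- and 1.27 CPM in its highest WT library.

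The limits on level removed transcripts with the same separation. Before them, 261 listed transcripts had non-overlapping libraries and a ratio of at least 4. Of the 104 left out, 33 had a mean under 0.5 CPM and 71 failed only because a whole group was at 0. That group was UT WT in 68 and WT DMBA in 12 of these 71, and a Tcrb-/- group in 0. Their mean in the 6 Tcrb-/- libraries was 1.01 to 121 CPM. The set of 157 thus leaves out transcripts that were at 0 in every library of a WT group. Among transcripts that met the limits on level, 598 were separated at any fold in this direction, and 218 had a ratio of at least 4 with overlapping libraries.

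Transcript MGP_FVBNJ_T0044708.1, 526 nt long, had the largest ratio of means at 614. Its level was 0, 0.0631 and 0 CPM in UT WT and 0.110, 0.116 and 0.181 CPM in WT DMBA. It was 125, 1.82 and 4.35 CPM in Tcrb-/- and 87.4, 41.8 and 27.6 CPM in Tcrb-/- + Treg. The WT values rest on 0 to 4 estimated reads per library, and the Tcrb-/- libraries themselves differed by 68.9 times between the lowest and the highest.

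Transcript MGP_FVBNJ_T0042422.1, 2185 nt long, had the highest mean CPM in the 6 Tcrb-/- libraries and a ratio of 107. Its level was 3.69, 1.55 and 1.63 CPM in UT WT and 110, 204 and 36.4 CPM in WT DMBA. In Tcrb-/- it was 9302, 2990 and 696 CPM, and in Tcrb-/- + Treg 10001, 12893 and 2186 CPM. In length-scaled units its mean was 1.60 TPM in UT WT, 77.7 TPM in WT DMBA, 2659 TPM in Tcrb-/- and 5243 TPM in Tcrb-/- + Treg. Its mean was higher in each group than in the one before, although Tcrb-/- and Tcrb-/- + Treg overlapped library by library.

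**Figure D2:**
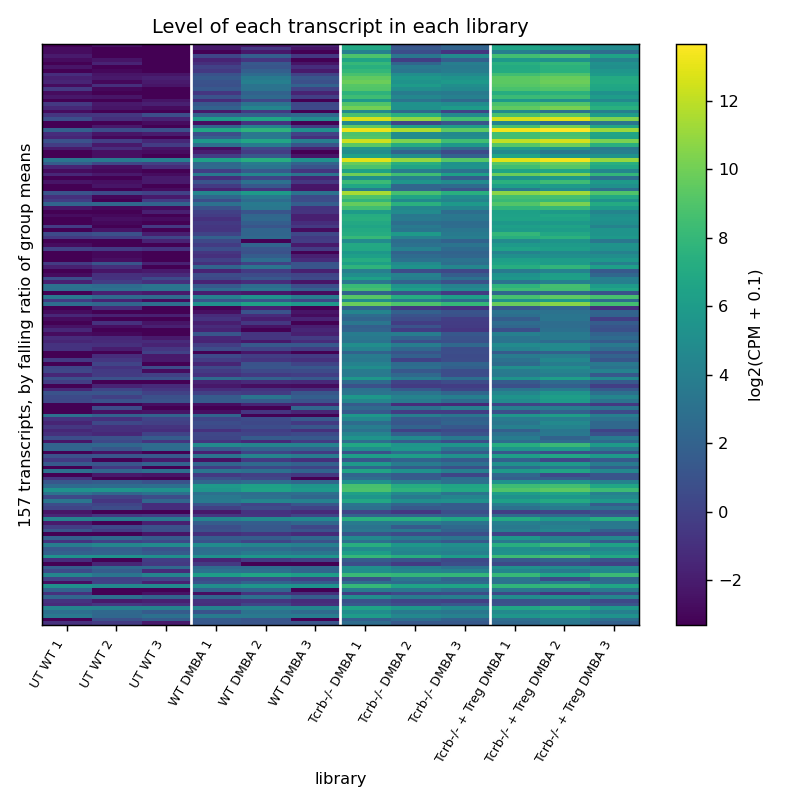
Level of each of the 157 transcripts (rows, by falling ratio of the Tcrb-/- to the WT mean) in each of the 12 libraries (columns), as log2(CPM + 0.1). Colour is the level, and white lines part the groups. Tcrb-/- replicate 1 and Tcrb-/- + Treg replicates 1 and 2 are the brightest columns in most rows.

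Members varied far more among libraries of one group than the median transcript that met the limits on level. Over the 6 Tcrb-/- libraries the highest CPM was a median of 10.7 times the lowest (range 1.84 to 128), against 2.20 times over those transcripts meeting the limits on level that were above 0 in all 6. The median coefficient of variation of members was 78.5% in UT WT, 61.5% in WT DMBA, 94.2% in Tcrb-/- and 55.3% in Tcrb-/- + Treg. Over all transcripts that met the limits on level it was 25.4%, 21.8%, 27.6% and 29.0%. Among 102 transcripts with the opposite pattern, lower in all Tcrb-/- libraries at the same fold, it was 24.1%, 29.5%, 59.8% and 82.9%. Wide spread within the Tcrb-/- groups was thus not particular to members. Members are low in the WT groups and those 102 in the Tcrb-/- groups, where few reads widen this measure.

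The members spread along the same libraries. Tcrb-/- replicate 1 was above replicates 2 and 3 in 143 of 157 (91.1%), compared with 31.4% of all transcripts that met the limits on level, and its CPM was a median of 4.36 times the mean of the other two. In Tcrb-/- + Treg, replicate 3 was below replicates 1 and 2 in 130 (82.8%), compared with 41.1%. In WT DMBA, replicate 2 was above replicates 1 and 3 in 109 (69.4%), compared with 26.0%. The lowest of the 6 Tcrb-/- libraries was Tcrb-/- replicate 3 in 107 members and Tcrb-/- replicate 2 in 32. The highest was Tcrb-/- + Treg replicate 2 in 82 and Tcrb-/- replicate 1 in 50. These counts are over transcripts of the same libraries and do not act as replicates of a condition, and these libraries were singled out after their values were seen.

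**Figure D3:**
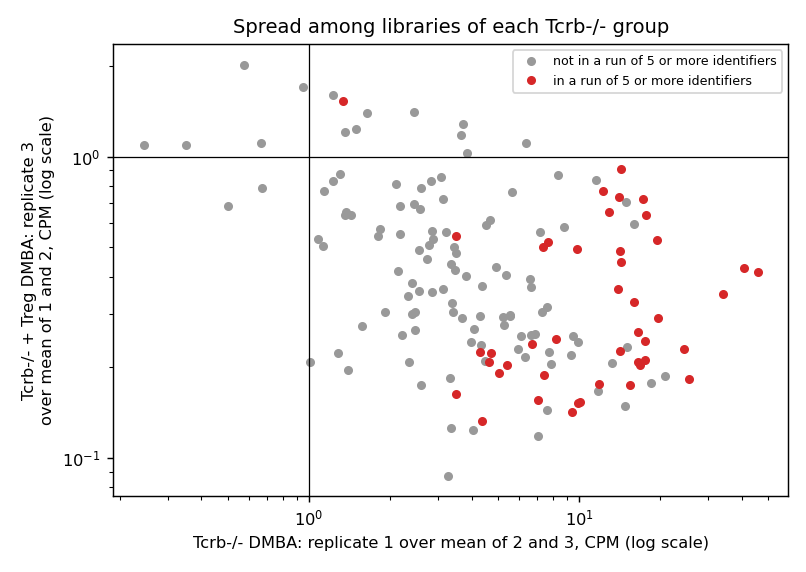
CPM of Tcrb-/- replicate 1 over the mean of replicates 2 and 3 (horizontal, log scale) against CPM of Tcrb-/- + Treg replicate 3 over the mean of replicates 1 and 2 (vertical, log scale), 1 point per transcript. Red points are in the 4 longest runs of neighbouring identifiers. Of the 157, 140 lie to the right of 1 and below 1, compared with 28.1% of all transcripts that met the limits on level.

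The members whose Tcrb-/- libraries were closest together had the smaller ratios of the Tcrb-/- to the WT mean. In 17 members the highest of the 6 Tcrb-/- libraries was under 3 times the lowest, and their median ratio of means was 5.71. In 57 it was 3 to 10 times, with a median ratio of 8.36, and in 80 it was 10 to 50 times, with a median ratio of 78.3. The remaining 3 spread over 50 times or more and had a median ratio of 240. The spread and the ratio both contain the highest library, so part of this order is built into the measures. In the 14 members where Tcrb-/- replicate 1 was not the highest of its group, the median ratio was 7.22 and the largest 21.3.

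Many members had neighbouring identifiers. The number inside the identifier was used as an order only, since it is not a genome position. A further member stood within 5 numbers of 74 of the 157 (47.1%), and of 439 of the 30521 other transcripts that met the limits on level (1.44%). Neighbouring identifiers can be transcripts of the same gene, so this counts transcripts and not genes. The 102 transcripts with the opposite pattern, lower in all Tcrb-/- libraries at the same fold, had a neighbour of their own kind in 14 (13.7%), and 3 of the 157 had one of these 102 as a neighbour.

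Joined at gaps of at most 5 numbers, the 157 formed 101 runs, of which 83 were a single transcript. The 4 runs of 5 or more held 44 members. The longest had 18 members over 42 consecutive numbers, and of those 42 listed transcripts 32 had the separation and the fold, 14 of them failing only the limits on level. The second had 12 members over 24 numbers, among which 12 transcripts had the separation and the fold, and it holds MGP_FVBNJ_T0042422.1. The third had 9 members among 10 consecutive numbers. The fourth had 5 members over 10 numbers, among which 9 transcripts had the separation and the fold, and it holds MGP_FVBNJ_T0044708.1. Some stretches of the identifier series were thus made up almost wholly of members or of transcripts with the same separation. Of the 439 neighbours that were no members, 50.8% had a higher mean in Tcrb-/- than in WT libraries, with a median log2 ratio of 0.01. Among the 30082 transcripts with no member close by, 37.1% had a higher mean in Tcrb-/-, with a median log2 ratio of −0.16.

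Summed over the longest run, the level was 6.27 to 8.98 CPM in UT WT, 47.9 to 287 CPM in WT DMBA, 926 to 14228 CPM in Tcrb-/- and 3228 to 15924 CPM in Tcrb-/- + Treg. The second run gave 15.6 to 25.3, 80.5 to 310, 1059 to 13258 and 3081 to 17419 CPM in the same order of groups. In both, the WT DMBA libraries lay above the UT WT libraries. The rule bound every sum over members to be lower in each WT library than in each Tcrb-/- library. The fourth run was at 0 to 0.379 CPM in UT WT and 0.950 to 7.05 CPM in WT DMBA, and its Tcrb-/- libraries were at 1063, 19.9 and 55.8 CPM.

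The 44 members of these runs had a median ratio of means of 86.9, against 10.8 for the 113 others. They also spread more, since Tcrb-/- replicate 1 was a median of 13.4 times the mean of replicates 2 and 3, against 3.36 times. Their WT DMBA mean was a median of 31.3 times their UT WT mean, against 2.35 times in the 113. Every WT DMBA library lay above every UT WT library in 31 of the 44 and 52 of the 113, compared with 14.6% of the transcripts that met the limits on level. Some of these folds rest on few UT WT reads, as in MGP_FVBNJ_T0044708.1 with 0, 2 and 0, and are loosely set. The runs were formed from the members after values were seen, and these differences carry no test.

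**Figure D4:**
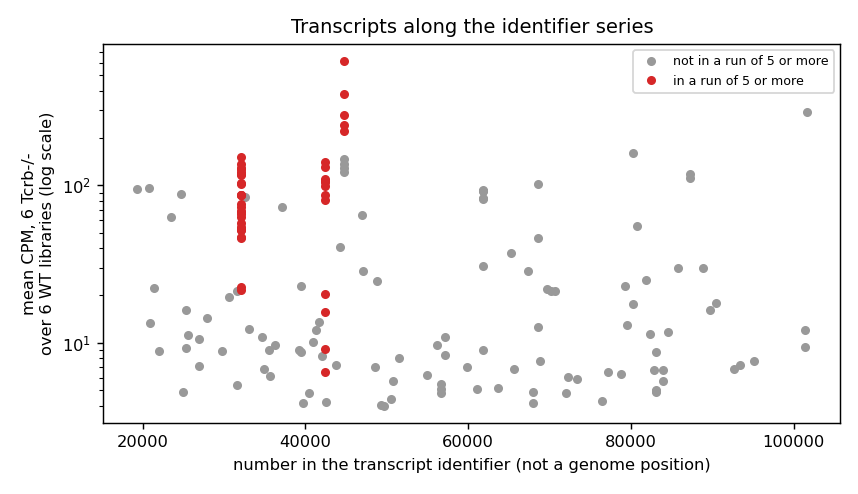
Ratio of the mean CPM of the 6 Tcrb-/- to that of the 6 WT libraries (vertical, log scale) along the number in the transcript identifier (horizontal, an order and not a genome position), 1 point per member. The 44 members in runs of 5 or more are red and crowd at 3 places along the series, since 2 of the runs lie close together.

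Members were somewhat short, with a median of 1633 nt (460 to 8664) compared with 2301 nt over all transcripts that met the limits on level, while 24.2% and 22.3% were under 1000 nt. The estimates were whole numbers in all 12 libraries (tolerance 0.01) in 19 members (12.1%), compared with 5.15% of the transcripts that met the limits on level. Among the 102 transcripts with the opposite pattern this share was 13.7%, so it was not particular to members. In the other 138 members reads were divided between similar transcripts in at least 1 library, so that the level of a single transcript is less certain. Whether such reads were divided within a run or with transcripts outside it was not tested, so sums over a run may be affected too.

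Most members had a higher level in WT DMBA than in UT WT, and 1 passed the test. The question of this comparison is how the transcripts that are high in treated Tcrb-/- skin differ between exposed and untreated WT skin. No group given the solvent alone was analysed here, and whether the UT WT mice were shaved is not given. The carcinogen is thus not parted from the rest of the treatment. The rule used the level of these 6 WT libraries and did not use the difference between them directly. A low UT WT level lowers the WT mean, however, and so helps a transcript that is higher in WT DMBA to reach the limit on fold. The shares of members given below are thus partly built in by the choice of members. The mean CPM was higher in WT DMBA than in UT WT in 142 of 157 (90.4%), compared with 51.0% of the transcripts that met the limits on level. The fitted log2 fold change had a median of 2.06 (quartiles 0.56 and 4.04) over members and of 0.01 over the 54539 transcripts tested.

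All 54539 transcripts with at least 10 reads over the 12 libraries were tested in 1 fit with edgeR's quasi-likelihood test, and a call needed a Benjamini-Hochberg adjusted p under 0.01 and a fold above 2. Of the 157, 1 was called higher, where 0.161% of all tested were, and 0 were called lower (0.0697% of all tested). At an unadjusted p under 0.05 the counts were 70 higher (44.6% of members, 6.86% of all tested) and 0 lower (4.51%). DESeq2 called 37 higher (1.58%). The 3 WT DMBA libraries all lay above the 3 UT WT libraries in 83 members (14.6% of the transcripts that met the limits on level) and below them in 1 (13.3%). Without WT DMBA replicate 2, in which most members were highest within their group, 38 members had an unadjusted p under 0.05 and a higher level, and the median log2 fold change was 1.40. Leaving out that library lowers the WT DMBA mean of those members, so a smaller count is partly built in. The same share of all tested transcripts was not counted in this refit.

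The called member was MGP_FVBNJ_T0039424.1, 2105 nt long. It was at 1.75, 2.08 and 2.59 CPM in UT WT and at 8.97, 19.6 and 13.1 CPM in WT DMBA, which is a log2 fold change of 2.73 ± 0.38 (SE; edgeR adjusted p = 0.00942). In Tcrb-/- it was at 74.6, 71.5 and 38.3 CPM, and in Tcrb-/- + Treg at 73.4, 104 and 56.7 CPM. It was among the members with the least spread, and its 4 groups did not overlap except for the Tcrb-/- pair. Its call was lost without UT WT replicate 1, 2 or 3 and without WT DMBA replicate 2 or 3, when the adjusted p of edgeR reached 0.0517 at most over all refits.

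Transcript MGP_FVBNJ_T0077134.1, 566 nt long and with whole-number estimates throughout, had the next smallest p. It was at 0.138, 0 and 0.182 CPM in UT WT and at 3.14, 3.29 and 4.88 CPM in WT DMBA (log2 fold change 5.17 ± 0.76 SE, edgeR adjusted p = 0.0113). Its UT WT values are 3, 0 and 4 reads, so its fold is loosely set. In Tcrb-/- it was at 13.2, 14.6 and 8.56 CPM and in Tcrb-/- + Treg at 15.8, 13.2 and 11.1 CPM, where the highest of the 6 Tcrb-/- libraries was 1.84 times the lowest, the smallest such ratio of any member.

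A single member had all WT DMBA libraries below UT WT. MGP_FVBNJ_T0085781.1, 1383 nt long, was at 7.93, 6.06 and 8.94 CPM in UT WT and at 2.42, 5.95 and 1.49 CPM in WT DMBA, and the difference did not pass the test (log2 fold change −1.19 ± 0.99 SE, edgeR adjusted p = 0.692). It was at 279, 42.5 and 17.4 CPM in Tcrb-/- and at 197, 375 and 62.7 CPM in Tcrb-/- + Treg. Its highest WT library was thus an untreated one, as in 21 members in all.

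Most members had a higher mean in Tcrb-/- + Treg than in Tcrb-/-, and none passed the test. This comparison asks what Tregs change in exposed Tcrb-/- skin. Both groups had to lie above WT for a transcript to enter the set, so a transcript that Tregs brought down to the WT level could not be a member. The mean CPM was higher in Tcrb-/- + Treg than in Tcrb-/- in 142 of 157 (90.4%), compared with 45.8% of the transcripts that met the limits on level, with a median ratio of 1.62. The fitted log2 fold change had a median of 0.74 (quartiles 0.39 and 0.94) over members and 0.00 over all tested.

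With edgeR's quasi-likelihood test and Benjamini-Hochberg adjustment, 0 members were called higher (0.00367% of all tested) and 0 lower (0.011%), and DESeq2 called 0 higher (0.205%). At an unadjusted p under 0.05, 4 were higher (2.88% of all tested) and 1 lower (4.09%). The groups did not overlap in 4 members that were higher (4.22% of the transcripts that met the limits on level) and in 1 that was lower (10.1%). These shares of members are near or below those over all transcripts.

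The count at an unadjusted p moved with the libraries included. Without Tcrb-/- replicate 1, the library in which most members were highest within its group, 95 members had an unadjusted p under 0.05 and a higher level in Tcrb-/- + Treg (4.36% of the 53883 transcripts then tested), with a median log2 fold change of 2.03 and still 0 calls. The mean CPM was then higher in Tcrb-/- + Treg in 147 members, compared with 43.8% of the transcripts that met the limits on level. The median ratio over members was 3.76. Leaving out the library that is highest of its group in most members lowers their Tcrb-/- mean. The rise in these values is thus partly built in. Without Tcrb-/- replicate 3, 0 had an unadjusted p under 0.05 and a higher level and the median was 0.32. The count was 1 without Tcrb-/- replicate 2, 1 without Tcrb-/- + Treg replicate 2 and 12 without Tcrb-/- + Treg replicate 3. Except without Tcrb-/- replicate 1, the same share of all tested transcripts was not counted in these refits.

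Of the members that did not overlap between the Tcrb-/- groups, MGP_FVBNJ_T0078764.1, 2954 nt long, had the smallest p. It was at 8.83, 2.84 and 5.55 CPM in Tcrb-/- and at 11.6, 16.9 and 11.6 CPM in Tcrb-/- + Treg (log2 fold change 1.28 ± 0.50 SE, edgeR adjusted p = 0.632). Its WT libraries were at 0.762 to 2.53 CPM. MGP_FVBNJ_T0092631.1, 2264 nt long, was at 7.18, 2.56 and 2.98 CPM in Tcrb-/- and at 7.64, 12.5 and 7.95 CPM with Tregs (1.20 ± 0.58 SE, edgeR adjusted p = 0.720), with WT libraries at 0.363 to 1.45 CPM. In both the Treg libraries were the higher ones without passing the test.

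In the other direction stood MGP_FVBNJ_T0035605.1, 3062 nt long and with whole-number estimates. It was at 1.96, 1.38 and 1.49 CPM in Tcrb-/- and at 0.950, 1.08 and 1.22 CPM in Tcrb-/- + Treg, with log2 fold change −0.49 ± 0.91 (SE) and an edgeR adjusted p of 1. Its WT libraries were at 0 to 0.520 CPM, which are 0 to 9 reads. It was a low member, with 22 to 43 reads in each of the 6 Tcrb-/- libraries.

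**Figure D5:**
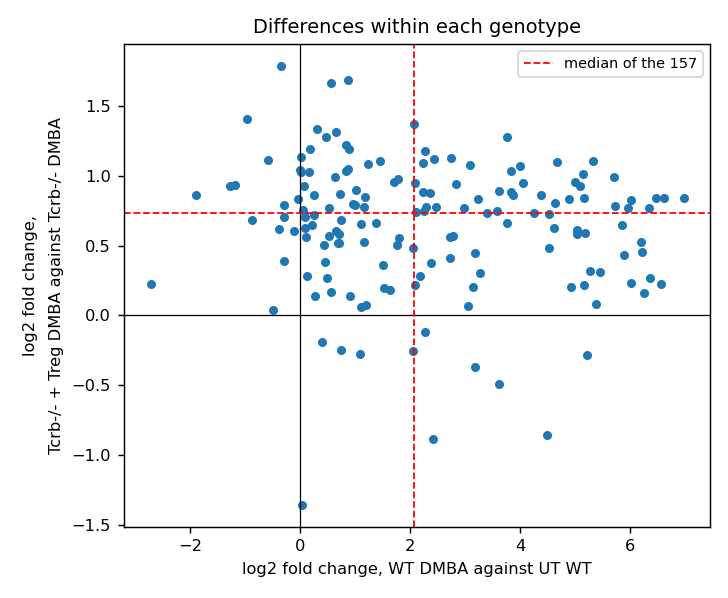
Fitted log2 fold change of each of the 157 transcripts for WT DMBA against UT WT (horizontal) and for Tcrb-/- + Treg against Tcrb-/- DMBA (vertical), 1 point per transcript. The contrasts share no library, and dashed red lines mark the medians of 2.06 and 0.74. Points spread from −2.72 to 6.97 across and from −1.36 to 1.79 upward.

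Between Tcrb-/- and WT DMBA, the contrast that the rule itself used, the fitted log2 fold change of members had a median of 3.63 and ran from 0.97 to 8.42. edgeR called 0 of the 157 higher (0.0% of all tested), although 144 had an unadjusted p under 0.05 (3.69% of all tested), and DESeq2 called 90 (0.455%). Since these libraries chose the members, nothing is read from these counts.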

How the data were processed

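The authors sequenced polyA RNA of back skin (TruSeq v2) and quantified it with Salmon 1.5.2 on the Ensembl FVB/NJ cDNA. The deposited values per transcript are estimated counts of reads, not normalized, TPM (scaled by the authors for length and to a fixed total) and lengths. CPM and the set were computed from the estimated counts with pandas 2.3.3 in Python 3.11.15, with TPM used for levels between transcripts. The members and lists were chosen with earlier results of these data known.

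Rounded counts of transcripts with at least 10 reads in all were scaled by TMM and fitted together for all 12 libraries with the quasi-likelihood F test of edgeR 4.0.16 under R 4.3.3, with Benjamini-Hochberg adjustment. SE is the log2 fold change over the square root of F. DESeq2 1.42.0 was an alternative, beside other scalings, filters, offsets for effective length, a replicate block and leaving out libraries. The paper itself combined the estimates into counts per gene and tested them with DESeq2 at the same limits on adjusted p and fold. Its counts of genes and the counts of transcripts here differ in unit and mostly in test, and cannot be set side by side.

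Depth was 17312566 to 31701620 reads. Replicates of a group differed beyond sampling noise (mean chi-square 24.6 to 125 over transcripts), and none were merged. Planned gene lists, markers and the check of Tcrb needed gene names and were not run. Named, at most 2 each way per comparison, are the members with the largest ratio and the highest CPM, and, within a genotype, those of smallest p whose groups do not overlap.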

Additional observations from a re-analysis of the deposited data

How the results depend on the processing

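The set held 268 transcripts at a fold of at least 2, 116 at a fold of at least 8, 165 and 137 at a mean of at least 0.1 and 2 CPM, 150 on TPM, 183 on TMM-scaled libraries and 19 with whole-number estimates only. Leaving out 1 library gave 143 to 218, the highest without Tcrb-/- replicate 3. For WT DMBA against UT WT, members called were 2 with no filter, 2 with filterByExpr, 37 with DESeq2, 9 at an adjusted p under 0.05 with no fold limit, 0 with the replicate block and 0 to 1 without 1 library. Apart from DESeq2, the share of all transcripts called was not counted in these settings. For Tcrb-/- + Treg against Tcrb-/- the count was 0 in every setting run, without 1 library included (0 to 0). For Tcrb-/- against WT DMBA, edgeR gave 0 in every setting run, and DESeq2 gave 90. MGP_FVBNJ_T0039424.1 missed the call in 7 of its 14 refits and MGP_FVBNJ_T0077134.1 passed it in 4, without a change of direction in any named transcript. No scaling moved the median of all transcripts by as much as 0.1 (log2). Whether libraries with the same replicate number share more than the number is not given. Deviations of same-numbered libraries correlated at −0.0576 to 0.116 over 18 pairs of libraries, 1 of them over 0.1, which cannot settle it. The block gave 0 calls in each comparison, and only WT DMBA against UT WT had a call without it in edgeR's main fit. At this depth, 36 members had at most 3 reads in every UT WT library, so their folds against UT WT are loosely set.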
